A study of Mus musculus with 6 samples.

Results

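Chemokines are small secreted proteins that attract leukocytes and other cells along a gradient, and each acts through 1 or a few G protein-coupled receptors. Interleukin 6 is a cytokine that signals through its receptor Il6ra and the shared subunit Il6st to the Jak kinases and Stat3. In the heart these factors are best known from inflammation, where fibroblasts, endothelial cells and macrophages release them, while Cxcl12 is also known for its part in the growth of the coronary vessels. The genes described here are the CC chemokines Ccl2, Ccl7 and Ccl5, the CXC chemokines Cxcl1, Cxcl5, Cxcl10, Cxcl12, Cxcl14 and Cxcl16, and Il6. These 10 genes were taken as a named list, matched by Ensembl identifier to the 43629 genes of the count files. Of the 10, 9 had enough counts to be tested among 15470 genes, and Cxcl5 did not.

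The RNA-Seq libraries came from primary ventricular cells of CD-1 mouse embryos at embryonic day 13.5. Ventricles were pooled by litter, enriched for cardiomyocytes by differential attachment, transfected at 12 nM with a negative control siRNA or with a pool of 4 siRNAs against DNMT1, the maintenance DNA methyltransferase, and sorted on the surface antigen VCAM1 at 72 h. There were 3 cultures per siRNA, and no gene was altered in the genome of either group. The titles of the knockdown samples name DNMT1, whereas their treatment tag names DNMT3a. The titles were followed, and Dnmt1 averaged 3029 ± 367 normalized counts in the negative siRNA cultures and 741 ± 65.9 in the knockdown cultures (SD, n = 3 each, log2 fold change -2.03, adjusted p = 0.000192), whereas Dnmt3a had a log2 fold change of 0.24 (edgeR quasi-likelihood test, adjusted p = 0.0919). The sources do not say whether the 3 cultures of a group came from separate litters, so that p-values measure the spread between these cultures, which may be technical.

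Reads on genes numbered 27852412 to 35896018 with negative siRNA and 13739561 to 16186310 with DNMT1 siRNA. Between 14.6% and 17.5% of uniquely mapped reads with negative siRNA, and between 24.4% and 31.95% with DNMT1 siRNA, lay outside annotated exons. Alignments that were not unique numbered 88.7 to 91.7 per 100 reads on genes with negative siRNA and 134.5 to 182 with DNMT1 siRNA. The part of these differences in the results was not tested. Negative siRNA culture 2 stood apart from its replicates on the second principal component, and its values are given beside the results that turn on it. Counts were scaled to a common effective library size and are called normalized counts. A gene was called when its Benjamini-Hochberg adjusted p was below 0.05 and its fold change above 1.5 in either direction. Log2 fold changes are DNMT1 siRNA over negative siRNA, and are negative where the knockdown cultures were lower.

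After DNMT1 knockdown, 3 of the 9 tested genes fell, namely Ccl2, Ccl7 and Cxcl1, and no member of the list rose. Over all tested genes 2.23% were called lower and 4.26% called higher. The log2 fold change was negative for 8 of the 9, with a median of -1.02, against -0.0049 over all tested genes. That median is the value of Ccl5, a gene with few counts that was not called. For Ccl5 it was -0.42 without negative siRNA culture 3, so that the median depends on this culture. All 3 knockdown cultures lay below all 3 negative siRNA cultures for Ccl2, Ccl7, Cxcl1 and Cxcl16, and above them for Cxcl12. Such a separation was found in 17.7% of tested genes in the lower direction and in 18.3% in the higher direction.

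**Figure D1:**
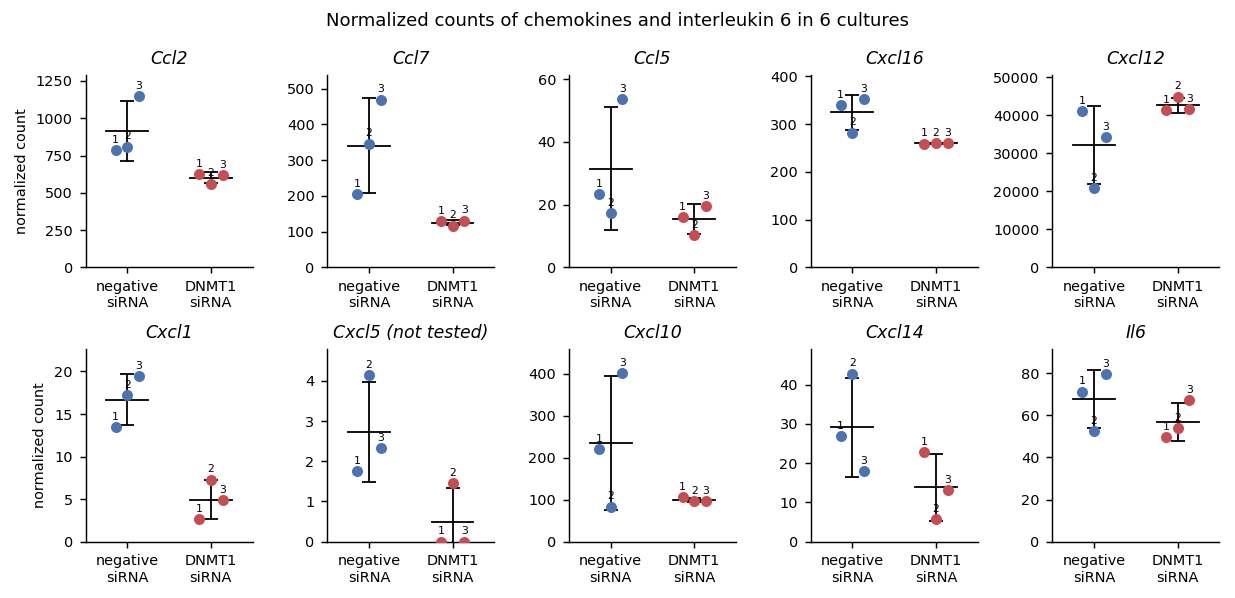
Normalized counts (vertical axis, from 0) of the 10 genes in each culture, numbered by replicate, with negative siRNA in blue and DNMT1 siRNA in red. Horizontal bars are means and error bars are SD (n = 3). Ccl2, Ccl7 and Cxcl1 do not overlap between the siRNAs, whereas Cxcl10 overlaps because negative siRNA culture 2 is low.

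Several of these genes sit together in the genome. On chromosome 11 of GRCm38, Ccl2 (chr11:82035571-82037453) and Ccl7 (chr11:82045712-82047525) lie 8.26 kb apart on the plus strand, and Ccl5 lies 1.48 Mb beyond Ccl7. The next chemokine genes after Ccl7 are Ccl11, Ccl12, Ccl8 and Ccl1, none of which had enough counts to be tested, with at most 14 counts in any culture. On chromosome 5, Cxcl5 (chr5:90759360-90761624) and Cxcl1 (chr5:90891241-90893115) are 130 kb apart, Cxcl10 (chr5:92346638-92348889) follows 1.45 Mb after Cxcl1, and Il6 (chr5:30013114-30019981) is 60.7 Mb before Cxcl5. Cxcl12 (chr6:117168535-117181367), Cxcl14 (chr13:56288643-56296551) and Cxcl16 (chr11:70453983-70459984) lie apart from these clusters.

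Promoter sequences were found in RefSeq (GRCm38.p6) for 5 of the 10 genes, Cxcl1, Cxcl10, Cxcl12, Cxcl14 and Il6. The 250 bases before the start are shown for Cxcl1, which fell, and for Cxcl10, Il6 and Cxcl12, which were not called. Capitals mark matches, on either strand, to a motif like the NF-kB site (GGG, any 3 bases, TTCC), to one like the interferon response element (GAAA, any 2 bases, GAAA) or to one like the AP-1 site (TGA, any base, TCA). These letters were chosen after the sequences had been seen.
Cxcl1 (chr5:90890995-90891244, plus strand): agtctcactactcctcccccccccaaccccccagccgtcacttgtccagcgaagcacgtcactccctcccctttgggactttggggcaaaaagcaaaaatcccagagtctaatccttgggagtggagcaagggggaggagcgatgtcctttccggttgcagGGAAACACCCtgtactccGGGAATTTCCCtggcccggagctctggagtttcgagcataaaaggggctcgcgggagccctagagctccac
Cxcl10 (chr5:92348890-92349139, minus strand): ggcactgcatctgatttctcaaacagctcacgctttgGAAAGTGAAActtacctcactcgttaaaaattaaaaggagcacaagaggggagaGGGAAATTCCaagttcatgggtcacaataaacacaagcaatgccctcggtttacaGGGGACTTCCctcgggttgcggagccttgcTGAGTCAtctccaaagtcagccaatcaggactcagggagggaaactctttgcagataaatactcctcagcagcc
Il6 (chr5:30012864-30013113, plus strand): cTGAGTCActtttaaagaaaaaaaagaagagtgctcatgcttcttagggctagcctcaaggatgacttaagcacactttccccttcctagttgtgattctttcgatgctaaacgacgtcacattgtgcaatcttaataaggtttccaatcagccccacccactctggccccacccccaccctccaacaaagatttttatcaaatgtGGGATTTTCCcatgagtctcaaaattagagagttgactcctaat
Cxcl12 (chr6:117168285-117168534, plus strand): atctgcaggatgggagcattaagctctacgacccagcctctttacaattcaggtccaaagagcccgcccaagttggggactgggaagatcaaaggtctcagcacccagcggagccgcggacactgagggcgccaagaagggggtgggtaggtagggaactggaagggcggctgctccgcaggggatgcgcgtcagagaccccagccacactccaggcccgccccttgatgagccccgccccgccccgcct

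NF-kB-like letters were present in the promoters of Cxcl1, Cxcl10 and Il6, and 4.65% of the 32851 mouse promoters of the same length held them. They began 89, 71 and 70 bases before the start of Cxcl1, the last 2 overlapping on opposite strands, 159 and 104 bases before that of Cxcl10, and 44 bases before that of Il6. Interferon response-like letters were found 213 bases before the start of Cxcl10 and 172 before that of Cxcl14, and in 2.98% of promoters. AP-1-like letters were found 74 bases before the start of Cxcl10 and 249 before that of Il6, and in 6.75% of promoters. None of the 3 motifs was in the window of Cxcl12. Since the letters were chosen after these sequences had been seen, the shares over all promoters give no test of the members. Methylation was not measured in these libraries, and the promoters held 10 CpG dinucleotides at Cxcl1, 5 at Cxcl10, 14 at Cxcl12, 16 at Cxcl14 and 3 at Il6, against a median of 6 over all promoters.

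Ccl2 and Ccl7 are ligands of Ccr2 that draw monocytes into tissue. Ccl2 stood at 789, 810.2 and 1147 normalized counts in the 3 negative siRNA cultures and at 628, 562 and 616 in the 3 DNMT1 siRNA cultures. The means were 915 ± 201 and 602 ± 35.0 (SD, n = 3 each), with no overlap and a log2 fold change of -0.60 (adjusted p = 0.0350, SE 0.15). The fold change of 1.52 was just inside the limit. Without negative siRNA culture 3, the highest, it was -0.41 on the log2 scale and no longer past the fold limit, and without any 1 of the 3 DNMT1 siRNA cultures the adjusted p was 0.0945, 0.151 and 0.110.

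Ccl7 showed the wider difference of the pair. Its normalized counts were 204, 346 and 469 with negative siRNA and 129, 117 and 131 with DNMT1 siRNA. The means of 339.8 ± 132 and 125 ± 7.71 differed by a log2 fold change of -1.43 (adjusted p = 0.0166, SE 0.28), a fold change of 2.70. The knockdown cultures were tightly grouped, while the negative siRNA cultures spread more than 2-fold. Leaving out a negative siRNA culture kept the call, and leaving out DNMT1 siRNA culture 1, 2 or 3 gave adjusted p values of 0.0656, 0.0909 and 0.0683, so that no call was made. The ratio of the neighbours also differed, since there were 25.9, 42.7 and 40.9 counts of Ccl7 per 100 counts of Ccl2 with negative siRNA and 20.5, 20.7 and 21.2 with DNMT1 siRNA.

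Ccl5, a CC chemokine that attracts T cells and monocytes, was low and variable. Its normalized counts were 23.3, 17.2 and 53.7 with negative siRNA and 16.1, 10.2 and 19.6 with DNMT1 siRNA, so that the groups overlapped. The log2 fold change was -1.02 (adjusted p = 0.217, SE 0.50), and it was -0.42 without negative siRNA culture 3.

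Cxcl1 and Cxcl5 are ligands of Cxcr2 that recruit neutrophils. Cxcl1 had few counts, 23, 25 and 25 with negative siRNA and 2, 5 and 3 with DNMT1 siRNA. After scaling these were 13.4, 17.2 and 19.4 against 2.68, 7.28 and 4.90, means of 16.7 ± 3.05 and 4.96 ± 2.30. All 3 knockdown cultures were below all negative siRNA cultures, and the log2 fold change was -1.73 (adjusted p = 0.0362, SE 0.43), a fold change of 3.33. The call did not hold without negative siRNA culture 3 (adjusted p = 0.0709), without DNMT1 siRNA culture 1, 2 or 3 (0.128, 0.0909 and 0.127), or with DESeq2 (0.0856). Cxcl5 had 3, 6 and 3 counts with negative siRNA and 0, 1 and 0 with DNMT1 siRNA, and gave no test. Cxcl2, which lies beside Cxcl1 and encodes a further Cxcr2 ligand, had 0 to 4 counts.

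Cxcl10 is induced by interferon and attracts activated T cells through Cxcr3. Its normalized counts were 221, 83.4 and 401 with negative siRNA and 106, 96.1 and 96.4 with DNMT1 siRNA. Negative siRNA culture 2 lay below every knockdown culture, whereas the other two were more than 2 times as high as any of them. The log2 fold change was -1.23 (adjusted p = 0.133, SE 0.48). Without negative siRNA culture 2 it was -1.63 with an adjusted p of 0.00247, past both limits, and without negative siRNA culture 3, the highest, it was -0.62 with an adjusted p of 0.312. Cxcl10 shares 133 exonic bases with Art3, 5.91% of its exons, where reads could be left out or counted on either gene.

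Cxcl12, Cxcl14 and Cxcl16 are made at rest in many tissues. Cxcl12, the ligand of Cxcr4 and Ackr3, was by far the most abundant member and the only tested member with a positive log2 fold change. Its normalized counts were 41013, 20930 and 34328 with negative siRNA and 41339, 44900 and 41614 with DNMT1 siRNA, so that the highest negative siRNA culture lay just under the lowest knockdown culture. The log2 fold change was 0.41 (adjusted p = 0.234, SE 0.21), and it was 0.18 without negative siRNA culture 2.

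Cxcl16, a membrane-bound ligand of Cxcr6 that is shed by the proteases Adam10 and Adam17, had 339, 282 and 352 normalized counts with negative siRNA and 259, 261 and 259.9 with DNMT1 siRNA. The groups did not overlap, and the log2 fold change of -0.32 (adjusted p = 0.114, SE 0.12) passed neither limit. Without negative siRNA culture 2 it was -0.41 with an adjusted p of 0.0262, still short of the fold limit. Cxcl16 shares 552 exonic bases with Zmynd15, 18.3% of its exons. Cxcl14, a chemokine of epithelia and stroma, had 26.9, 42.8 and 17.9 normalized counts with negative siRNA and 22.8, 5.83 and 13.1 with DNMT1 siRNA. These overlapped, with a log2 fold change of -1.05 (adjusted p = 0.206, SE 0.50). It was -0.68 without negative siRNA culture 2, -0.69 without DNMT1 siRNA culture 2 and -1.66 without DNMT1 siRNA culture 1, none of them called.

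Il6 differed least among the members whose values were lower on average. It had 71.2, 52.4 and 79.3 normalized counts with negative siRNA and 49.6, 53.9 and 67.0 with DNMT1 siRNA, means of 67.7 ± 13.8 and 56.8 ± 9.06. The groups overlapped, and the log2 fold change was -0.25 (adjusted p = 0.503, SE 0.23). With a culture left out it ranged from -0.41, without negative siRNA culture 2, to -0.13, without negative siRNA culture 3.

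**Figure D2:**
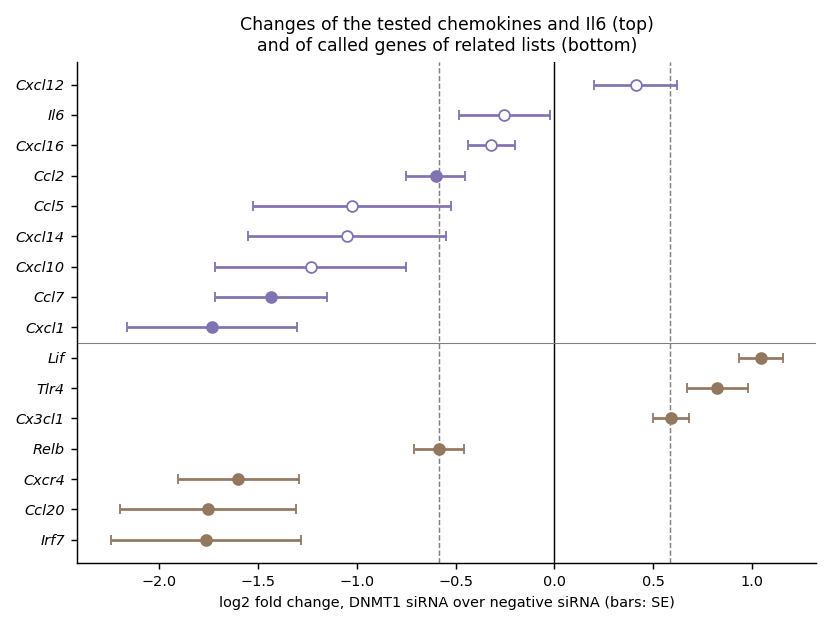
Log2 fold changes (horizontal axis, DNMT1 siRNA over negative siRNA) with SE for the 9 tested chemokine and Il6 genes (purple) and for called genes of related lists (brown). Filled points passed both limits, and dashed lines mark a fold change of 1.5. Ccl2 at -0.60 is close to the line, and Cxcl12 at 0.41 is the only purple point above 0.

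Compared as counts scaled to library size (CPM) per kilobase of exon, the members spanned a wide range of levels. With negative siRNA, Cxcl12 stood at 181 ± 57.5 CPM per kilobase (SD, n = 3). It was followed by Ccl2 at 37.0 ± 8.11, Ccl7 at 19.5 ± 7.61, Cxcl16 at 4.94 ± 0.569 and Cxcl10 at 4.81 ± 3.26. The remaining genes were at 1.51 ± 0.935 for Ccl5, 1.28 ± 0.262 for Il6, 0.734 ± 0.317 for Cxcl14, 0.410 ± 0.0747 for Cxcl1 and 0.0677 ± 0.0307 for Cxcl5. The neighbours from Cxcl16 down to Cxcl1 overlapped in this order, whereas Cxcl12, Ccl2, Ccl7 and Cxcl16 were separate. With DNMT1 siRNA the order was the same except that Il6, at 1.08 ± 0.172, stood above Ccl5, at 0.733 ± 0.228, and the only neighbours in this order that overlapped were Ccl5 with Cxcl14 and Cxcl14 with Cxcl1. The shares and sums that follow were not divided by exon length. That length was 8176 bases for Cxcl12 and 801 to 3021 for the other members, which raises the share of Cxcl12. On this measure Cxcl12 took 92.7% to 96.0% of the counts of the 10 genes with negative siRNA and 97.2% to 97.6% with DNMT1 siRNA. Without Cxcl12, the members summed to 77.7, 76.2 and 117 CPM with negative siRNA and to 55.8, 51.3 and 55.6 with DNMT1 siRNA. Ccl2 and Ccl7 together made up 58.8% to 69.8% of these counts with negative siRNA and 60.9% to 62.4% with DNMT1 siRNA.

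No member was called unless all 3 knockdown cultures were in the fit. With any 1 of the 3 DNMT1 siRNA cultures left out, 0 of the members were called. The number of all genes called lower then also went down, from 345 to between 112 and 146. Without a DNMT1 siRNA culture, the log2 fold change was -0.56 to -0.66 for Ccl2, -1.39 to -1.48 for Ccl7 and -1.44 to -2.14 for Cxcl1. Without negative siRNA culture 3 only Ccl7 was called, and without negative siRNA culture 2 Cxcl10 was called beside Ccl2, Ccl7 and Cxcl1. The sign of each tested member was the same in each of these 6 fits.

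**Figure D3:**
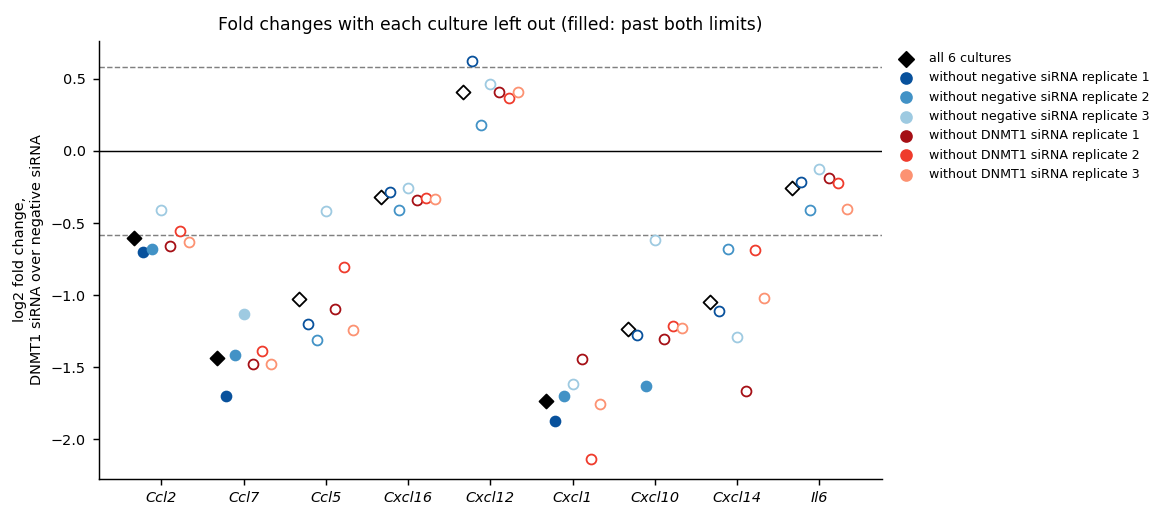
Log2 fold changes (vertical axis) of the 9 tested genes with all 6 cultures (diamonds) and with each culture left out (circles, coloured by the culture). Filled symbols passed both limits, dashed lines mark a fold change of 1.5, and the red series, which leave out a DNMT1 siRNA culture, hold no filled symbol.

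The receptors for these ligands were mostly at the limit of detection. Of 23 chemokine receptor genes, 8 were tested, 1 was called lower and 0 higher. The gene called was Cxcr4, the signalling receptor of Cxcl12. Its normalized counts were 33.3, 29.0 and 41.2 with negative siRNA and 12.1, 8.74 and 13.1 with DNMT1 siRNA, with no overlap and a log2 fold change of -1.60 (adjusted p = 0.0154, SE 0.31). Without any 1 DNMT1 siRNA culture it was not called, with adjusted p values up to 0.0894. Ackr3, which also binds Cxcl12 and scavenges it, had 232, 252 and 220.1 normalized counts against 327, 261 and 337, with a log2 fold change of 0.39 (adjusted p = 0.0876, SE 0.13). Ackr1, an atypical receptor for CC and CXC ligands, had 7 to 13 counts per culture and a log2 fold change of 0.71 (adjusted p = 0.303).

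Ccr2, the receptor of Ccl2 and Ccl7, had 1, 1 and 1 counts with negative siRNA and 0, 6 and 8 with DNMT1 siRNA, too few to be tested. Ccr1 had 3, 18 and 14 counts and 1, 2 and 4. Among the negative siRNA cultures it was lowest in culture 1. The highest count was 7 for Cxcr2, 2 for Cxcr3, 11 for Cxcr6 and 2 for Ackr2, and none of these receptors was tested.

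Among 28 other chemokines, 5 were tested, 1 was called lower and 1 higher. Ccl20, the ligand of Ccr6, had few counts, 27, 36 and 25 with negative siRNA and 7, 2 and 3 with DNMT1 siRNA. After scaling it fell from a mean of 20.01 ± 4.56 (SD, n = 3) to 5.74 ± 3.32 normalized counts, a log2 fold change of -1.75 (adjusted p = 0.0392, SE 0.45). It was called without negative siRNA culture 1 and not without any other culture, with adjusted p values up to 0.166, and it was not called with DESeq2 (adjusted p = 0.0602). Cx3cl1, a membrane-bound chemokine that acts through Cx3cr1, rose from 409 ± 20.7 to 615 ± 46.3, a log2 fold change of 0.59 (adjusted p = 0.00660, SE 0.091). It was at the fold limit, and was not called without negative siRNA culture 3 or DNMT1 siRNA culture 1, with DESeq2, with no filter or with total counts as the scaling, where its log2 fold change was 0.50 to 0.56. The 23 chemokines that were not tested had at most 22 counts in any culture.

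Of the 7 related ligands of the interleukin 6 family, 4 were tested, and Lif, the leukemia inhibitory factor, was the single call. It had 654, 552 and 739.7 normalized counts with negative siRNA and 1282, 1410 and 1318 with DNMT1 siRNA. It rose from 649 ± 93.8 to 1337 ± 65.9, a log2 fold change of 1.04 (adjusted p = 0.00160, SE 0.11), and was called with each culture left out. Il11, Clcf1 and Ctf1 were not called, with log2 fold changes between -0.18 and 0.0027. Of 17 receptor and signalling genes of the family, 17 were tested and 0 were called in either direction, although 4 had an adjusted p below 0.05 at a smaller fold change, and their median log2 fold change was -0.15. Il6ra had 183, 85.5 and 198 normalized counts against 159.6, 197 and 172 and a log2 fold change of 0.18 (adjusted p = 0.721, SE 0.29). Il6st was abundant, at 12312, 12194 and 14806 against 12157, 11856 and 12284, with a log2 fold change of -0.11 (adjusted p = 0.432, SE 0.089).

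NF-kB is the transcription factor that inflammatory signals use to switch on many chemokine genes and Il6. Of 29 genes of its pathway, 26 were tested, 1 was called lower and 1 higher, and the median log2 fold change was -0.095. A further 2, both lower, had an adjusted p below 0.05 at a fold change short of the limit. Relb, a subunit of the noncanonical branch, fell from 597 ± 90.1 to 398 ± 28.9 normalized counts, a log2 fold change of -0.59 (adjusted p = 0.0237, SE 0.13). It was at the fold limit, and was called without negative siRNA culture 1 but not without any other culture or with at least 10 counts in every culture. Tlr4, the receptor for lipopolysaccharide, rose from 449 ± 102 to 794 ± 19.4, a log2 fold change of 0.82 (adjusted p = 0.0142, SE 0.15), and was not called without any 1 DNMT1 siRNA culture, with adjusted p values up to 0.0742. Tnf, Il1a and Il1b, which encode cytokines that activate the pathway, had at most 9 counts and were not tested.

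Of 18 interferon regulators, 17 were tested, 1 was called lower and 0 higher, with a median log2 fold change of -0.11. A further 1, which was higher, had an adjusted p below 0.05 at a fold change short of the limit. Irf7, a transcription factor of the interferon response, had 1397, 465 and 2242 normalized counts with negative siRNA and 347, 371 and 492 with DNMT1 siRNA. Negative siRNA culture 2, which was also the lowest for Cxcl10, overlapped the knockdown cultures. Irf7 fell by 1.76 on the log2 scale (adjusted p = 0.0483, SE 0.48), and among the fits that leave out a culture it was called only without negative siRNA culture 2, with adjusted p values up to 0.177 in the alternatives. Of 8 proteases that cut or shed chemokines, 6 were tested and 0 were called, with log2 fold changes of -0.41 to 0.19, among them Adam10 at 0.19 and Adam17 at -0.091. The lowest of them, at -0.41, had an adjusted p below 0.05 and fell short of the fold limit.

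**Figure D4:**
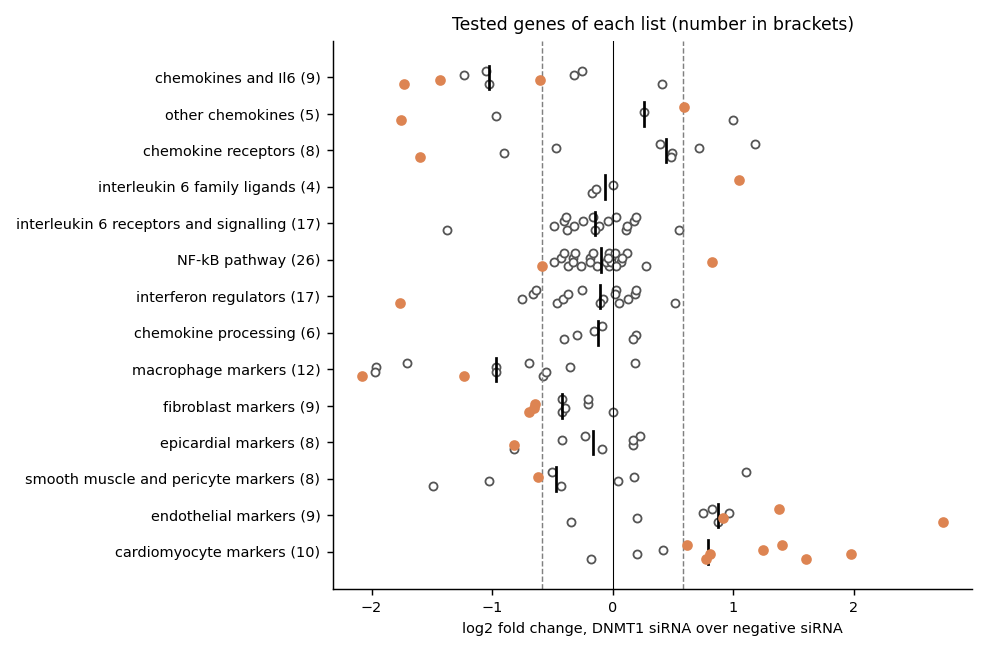
Log2 fold changes (horizontal axis, DNMT1 siRNA over negative siRNA) of the tested genes of each list, with the number tested in brackets. Orange points passed both limits, black bars are medians and dashed lines mark a fold change of 1.5. The median of the 9 chemokine and Il6 genes is -1.02, the value of Ccl5, which was not called. Among the marker lists it is -0.97 for macrophages, -0.47 for smooth muscle and pericytes, -0.42 for fibroblasts and -0.16 for the epicardium. It is 0.87 for endothelial and 0.79 for cardiomyocyte markers.

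In bulk libraries, fewer cells of a type cannot be told apart from less RNA per cell. Macrophages, a source of chemokines, left a low signal, with 12 of 12 markers tested. Their summed level was 20.8, 56.0 and 60.0 CPM in the 3 negative siRNA cultures and 17.6, 22.9 and 27.2 in the 3 DNMT1 siRNA cultures. Their median log2 fold change was -0.97, 11 of 12 were negative, and 2 were called lower, namely Lyz2, which encodes lysozyme (log2 fold change -1.23, adjusted p = 0.0476), and C1qc, a chain of complement C1q (-2.08, adjusted p = 0.0469). Ccl2, Ccl7 and Cxcl1 were lowest among the negative siRNA cultures in culture 1, as was this list. Ccl5, Cxcl10, Cxcl12, Cxcl16 and Il6 were lowest in culture 2, and Cxcl14 in culture 3. In negative siRNA culture 1 the list, at 20.8 CPM, lay within the range of the knockdown cultures. Ccl2, Ccl7 and Cxcl1 did not overlap between the siRNAs. The part of macrophages in the results on Ccl2, Ccl7 and Cxcl1 was not tested.

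The list of fibroblast markers was far more abundant, at 57009 to 75438 CPM summed over the list with negative siRNA and 45481 to 48029 with DNMT1 siRNA. Of these, 9 were tested and 3 were called lower, the collagen genes Col1a1 and Col1a2 and the proteoglycan gene Dcn. The matrix genes Fn1, Col1a1, Col1a2 and Col3a1, which other mesenchymal cells also make, held 97.7% to 98.2% of that sum. Cardiomyocyte markers summed to 1951 to 2533 CPM with negative siRNA and 4273 to 5167 with DNMT1 siRNA, and 7 of 10 were called higher. The libraries held the markers of the labelled cell type beside abundant RNA of these matrix genes, whose cell of origin was not tested. Vcam1, the antigen of the sort, was at 6448 ± 1000 and 5388 ± 109 normalized counts. Endothelial markers were called higher for 3 of 9, epicardial markers lower for 1 of 8, and smooth muscle and pericyte markers lower for 1 of 8. Of 8 blood markers, 2 were tested and 0 called, and Hbb-bh1 and Hba-x were at 0 in every culture. The summed levels of the fibroblast, cardiomyocyte, endothelial and smooth muscle lists did not overlap between the siRNAs, and their part in the results on the chemokines was not tested. Without Npr3, a natriuretic peptide receptor gene left out after the data had been seen, the endothelial list stood at 65.1, 109.8 and 65.5 CPM with negative siRNA and at 120.5, 122 and 103 with DNMT1 siRNA, which overlap.

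**Figure D5:**
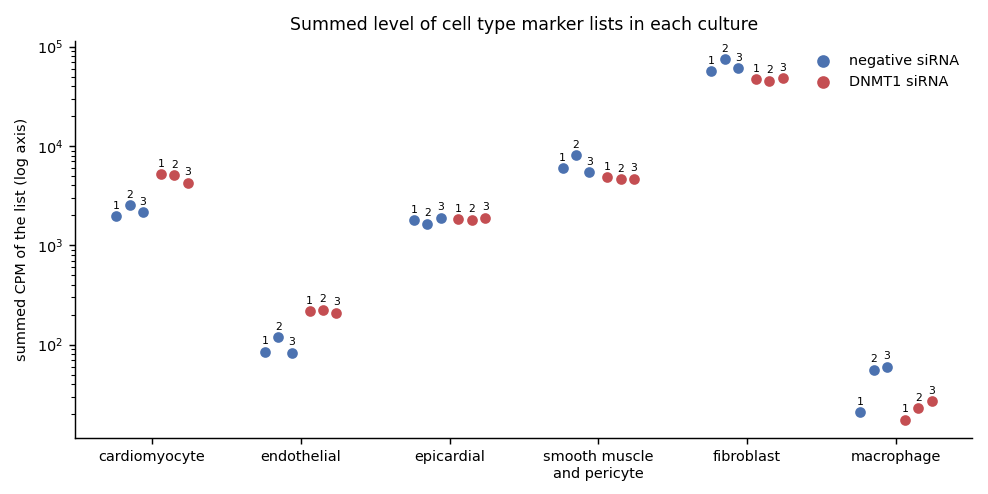
Summed CPM (vertical log axis) of 6 lists of cell type markers in each culture, numbered by replicate, with negative siRNA in blue and DNMT1 siRNA in red. The macrophage list lies between 17.6 and 60.0, and the fibroblast list between 45481 and 75438.

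The genes whose levels over the 6 cultures were most like those of Ccl2, the called member with the highest mean, were Tmem64 (Pearson's r = 0.996 of log2 CPM), Ttyh2 (0.994), Nfe2l1 (0.993), Akr1b8 (0.993) and Atf5 (0.992). The 6 points share the difference between the siRNAs and the library depth, 108 of 12737 candidate genes had an r above 0.95, and no test was made. Akr1b8 and Atf5 were called lower, with log2 fold changes of -0.64 and -0.60.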

How the data were processed

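The authors cleaned reads after FastQC, aligned them to the mouse genome (mm10, GRCm38) with TopHat2 and deposited raw counts, the number of reads HTSeq assigned to each Ensembl gene of a culture, with no normalization. The counter's own totals of unassigned reads, 53.0% to 54.2% of each negative siRNA file and 64.1% to 71.0% of each DNMT1 siRNA file, were left out of library sizes. The strand setting of the counting is not given in the sources used here. The 6 samples were fitted with edgeR 4.0.16 under R 4.3.3 (TMM, filterByExpr with a minimum count of 10 and total of 15, quasi-likelihood F test) and Benjamini-Hochberg adjustment over 15470 genes. Each SE was obtained by dividing the size of the log2 fold change by the root of its F value. DESeq2 1.42.0 was an alternative, beside other normalizations, filters, limits, a replicate block and leaving out each culture. The pipeline was tested on simulated data. Exon lengths and positions came from GENCODE M21 on GRCm38, which is newer than the authors' annotation. No pair of replicates was a copy of the same library. Chi-square per degree of freedom was 26.4 to 54.5 between negative siRNA cultures. It was 2.70 to 9.86 between DNMT1 siRNA cultures, which had fewer reads and lay closer together. With 3 cultures against 3, no exact permutation p can be below 0.1.

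The text names the 10 genes, the called genes of the pathway lists, a fixed set of receptors whether or not called (1 of them is not reported here), Dnmt1 as a check, and the 5 genes most like Ccl2. Genes added after their values were seen are the neighbours Cxcl2, Ccl11, Ccl12, Ccl8 and Ccl1 and the examples given from lists without a call. The members and lists were chosen with earlier results of these data known.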

Additional observations from a re-analysis of the deposited data

How the results depend on the processing

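Over 14 alternatives, no member was called higher and no tested member changed sign. Of the 11 related genes refitted, which are those called and the named receptors that were tested, Il6ra turned, to -0.11 without negative siRNA culture 2 (0.39 without culture 3), and was called in no fit. The 3 members called lower (Ccl2, Ccl7 and Cxcl1) were the same with RLE normalization and with total counts as the scaling. With no limit on fold change the fit is unchanged, so that no call could be lost, and no member was added. With no filter Cxcl10 was added. Its log2 fold change was then -1.26, close to the -1.23 of the main fit, while its adjusted p was 3.9e-10 against 0.133. For Irf7 the adjusted p was 7.7e-56 against 0.0483. The calls with no filter thus came with far smaller p-values at like fold changes, and are no separate support for Cxcl10. With at least 10 counts in every culture or with DESeq2, Ccl2 and Ccl7 were called. With an FDR below 0.01 0 members were called, and leaving out a culture gave 0 to 4. Cultures of equal number did not deviate together (r of 0.0064, -0.021 and 0.027), so that the numbers were not taken as pairs. With a replicate block 1 member, Ccl7, was called, Ccl2 had a log2 fold change of -0.58, just under the fold limit, Cxcl1 and Ccl20 had adjusted p values of 0.0613 and 0.0885, Relb a log2 fold change of -0.58, and 285 genes in all were lower and 513 higher. Against 345 genes lower and 659 higher, there were 701 and 994 with no filter, 874 and 1054 with no limit on fold change, and 124 and 296 with an FDR below 0.01. Leaving out a culture gave 112 to 472 lower and 255 to 823 higher. Leaving out a culture or removing the filter also changes the number of genes tested, and the cause of the other changes was not tested. Lif was called in all 14 alternatives, Ccl7 in 10, Ccl2 in 8 and Cxcl1 in 6 of the 13 that tested it. Each of these counts includes the alternative with no limit on fold change, where no call could be lost, and the one with no filter. Depth limits Cxcl5, the receptors, Cxcl1, whose knockdown counts were 2 to 5, and Ccl20, whose knockdown counts were 2 to 7.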
